A study of Mus musculus with 12 samples.

Results

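The genes described here carry the signals between the hypothalamus, the pituitary and the growth hormone target tissues: Ghrh, Sst, the somatostatin receptor genes Sstr1, Sstr2, Sstr3 and Sstr4, the ghrelin receptor gene Ghsr, the growth hormone receptor gene Ghr, and Igf1. They were chosen by gene symbol, which gave 16 of the 56605 probes of a mouse Agilent array, for 9 of its 27308 gene symbols. Hypothalamus RNA of 12 male mice was hybridized, 1 mouse to an array, with 3 arrays in each of 4 groups. WT mice were wild-type littermates without swimming, and KO mice were homozygous Asmt knockouts without swimming. Exercised WT mice were wild type and KE mice were Asmt knockouts, and both were trained in a swimming program. All mice were given as 6 to 7 weeks old, which the methods state as the age at which training began, and they came from a C57BL/6 colony in which founder mice with a 20 bp Cas9 deletion in Asmt had been crossed back to wild-type littermates for 3 generations. Asmt encodes the enzyme that completes melatonin synthesis, and its only probe was well above background on 0 of 12 arrays, so the arrays could not check the genotype.

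Growth hormone-releasing hormone, encoded by Ghrh, is made by neurons of the arcuate nucleus and drives the pituitary to release growth hormone, whereas somatostatin, encoded by Sst, is made in the periventricular nucleus and elsewhere in the brain and restrains that release. Somatostatin acts on a family of receptors coupled to inhibitory G proteins, and the stomach hormone ghrelin acts on Ghsr to raise growth hormone output. Growth hormone binds Ghr in liver and other tissues, which then make insulin-like growth factor 1, and both hormones act back on the hypothalamus.

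The arrays were on 2 slides. All WT mice and KO replicates 1 and 2 had been hybridized on the first slide (slide 1), and KO replicate 3 shared the other (slide 2) with every exercised WT and KE mouse. The first principal component of all tested probes took 48.5% of the variance and separated the slides, with KO replicate 3 among the arrays of slide 2. Comparisons of swimming with no swimming therefore rest on KO replicate 3 to separate slide from swimming, and exercised WT versus WT has no slide that holds both groups. For this reason the differences that span the slides are also given, for the probes described in full, with the slide as a fixed term ("slide block"). KE and exercised WT lay on the same slide.

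The probes that carry the somatostatin receptor results are shown first. The Sstr2 probe is the member whose signal separated the KE group, the Sstr4 probe reads another receptor of the family, and the second Sstr1 probe was too dim to be tested. Each of the 3 sequences keeps an open reading frame over its 60 bases, is given 5′ to 3′ as designed on the array, and lies on the plus strand of the mm9 build.
Sstr2, chr11:113486505-113486564: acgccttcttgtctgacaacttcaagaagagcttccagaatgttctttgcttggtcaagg
Sstr4, chr2:148221846-148221905: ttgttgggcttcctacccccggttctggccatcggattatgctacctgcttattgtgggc
Sstr1 (second probe), chr12:59314287-59314346: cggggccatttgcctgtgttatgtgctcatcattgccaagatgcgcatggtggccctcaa

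The Ghrh probes are shown because they are not independent readings. They overlap by 55 bases and differ at 2 of them, in capitals below, within the 30 bases of chr2:157155263-157155292 on the minus strand of mm9. Counted from the 5′ end of the stretch, the first probe against the second has the differences C8T and G22A.
Ghrh, first probe: gcttcagCtctgaccttttccGtcctctgt
Ghrh, second probe: gcttcagTtctgaccttttccAtcctctgt

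A probe was tested if every array of some group detected it, that is, read it well above background. Of the 16 probes 14 were tested, and each of these was detected on all 12 arrays. The untested probes were the second Sstr1 probe, detected on 2 arrays (WT replicate 1 and exercised WT replicate 3), and the third Igf1 probe, detected on 6 arrays. Thus all 9 genes had at least 1 measured probe. Signals are normalized log2 values, and since probes differ in brightness for reasons of their own sequence, levels were compared between groups and never between genes. In bulk tissue, fewer cells of a type and less RNA per cell cannot be told apart.

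None of the 14 probes met the screening criterion of the study, a change of 2-fold or more in either direction together with p of 0.05 or less before adjustment, in any of the 6 comparisons (limma). The share of all 35230 tested probes that met it was 0.227% for KO versus WT, 1.21% for KE versus KO, 2.19% for exercised WT versus WT, 2.74% for KE versus WT, 0.25% for KE versus exercised WT and 0.602% for the swimming by genotype interaction. At a Benjamini-Hochberg adjusted p under 0.05 there were also 0 member probes in every comparison, where the background was 0.0199% for KE versus KO and 0% for the other 5. The differences were small: over all 6 comparisons no member probe differed by more than 0.53 log2 units, and the median of the absolute differences of the members in KE versus KO was 0.16 against 0.13 over all tested probes. The signed median was -0.14 for the members and -0.04 for all tested probes.

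By the p of 0.05 alone, before adjustment for the number of probes, the members were counted as follows. In KE versus KO, 3 probes were lower (Sstr2, Sstr1 and the third Ghr probe), against 13% of all tested probes, and 1 was higher (Sst), against 8.1%. In KE versus WT, 3 were lower (Sstr2, Sstr1 and the first Ghr probe), against 17.9%, and 2 were higher (Sst and the first Igf1 probe), against 12.6%. In exercised WT versus WT, 2 were lower (Sstr1 and the first Ghr probe), against 14.2%, and 0 were higher, against 11.7%. In KO versus WT, 1 was higher (the third Ghr probe), against 2.38%, and 0 were lower, against 3.09%. Sstr2 was the 1 probe lower in KE versus exercised WT, against 4.55%, and in the interaction, against 4.18%, and 0 were higher in either, against 2.17% and 3.58%. The largest count, 3 of 14, is 21.4%, and such counts lay near the shares of the array as a whole. By non-overlap of the arrays, KE versus KO had 4 members lower, against 15.4% of all tested probes, and 0 higher, against 6.13%. KE versus WT had 3 lower, against 27.6%, and 2 higher, against 16.4%. Exercised WT versus WT had 1 lower, against 22%, and 0 higher, against 15.5%. KO versus WT had 1 higher, against 3.6%, and 0 lower, against 5.03%. KE versus exercised WT had 1 lower, against 11.3%, and 0 higher, against 8.26%.

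**Figure D1:**
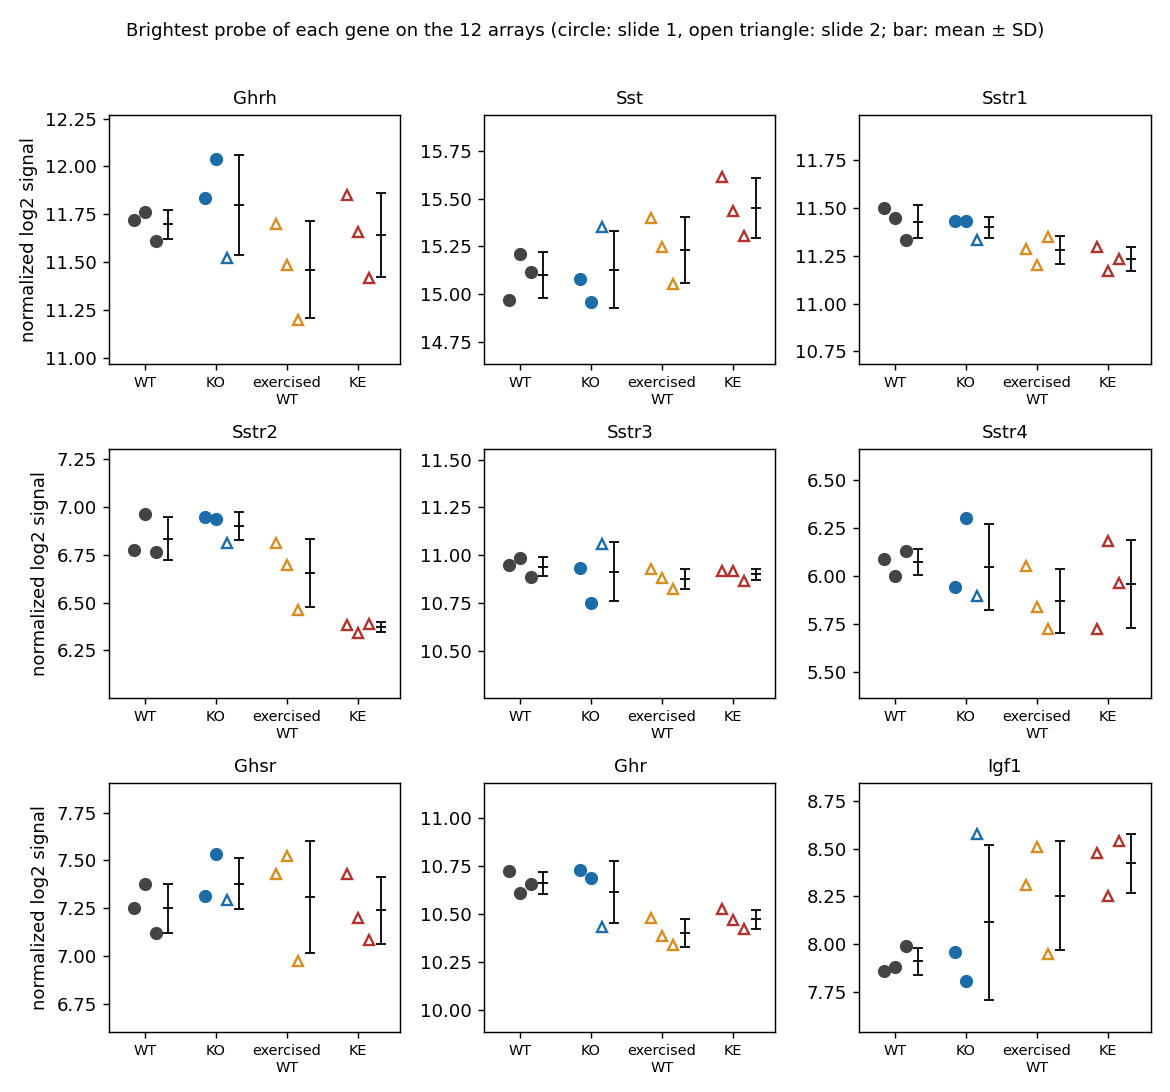
Normalized log2 signal (y axis, the same span in every panel) of the brightest probe of each of the 9 genes on each of the 12 arrays, by group (x axis), with slide 1 as filled circles, slide 2 as open triangles and the group mean ± SD as bars (n = 3). The KE arrays of Sstr2 lay below the arrays of all other groups, while for Sst, Ghr and Igf1 the KO array of slide 2 lay with the swimming groups of that slide.

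Sstr2 encodes a receptor through which somatostatin inhibits growth hormone release from the pituitary. In the brain this receptor sits on many neurons, those of the arcuate nucleus among them. Its log2 signal was 6.78, 6.96 and 6.76 in WT, 6.94, 6.94 and 6.81 in KO, 6.81, 6.69 and 6.46 in exercised WT, and 6.38, 6.34 and 6.39 in KE. All 3 KE arrays lay below all 9 other arrays, of which exercised WT replicate 3 was the nearest. Taken pair by pair, KE lay wholly below KO for 15.4% of all tested probes, below WT for 27.6% and below exercised WT for 11.3%. The share of probes with KE below all 9 other arrays was not counted, so how uncommon this separation is remains unknown. The group means were 6.90 ± 0.07 in KO, 6.83 ± 0.11 in WT, 6.65 ± 0.18 in exercised WT and 6.37 ± 0.03 in KE (SD, n = 3), in that order, and KO and WT, and WT and exercised WT, overlapped.

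The KE signal of Sstr2 was 69.4% of the KO signal, a difference of -0.53 ± 0.09 (SE; limma, adjusted p = 0.0929). With the slide block the difference was -0.44 ± 0.13 (adjusted p = 0.355). That estimate is the mean of KE minus KO replicate 3, the only KO array on the slide of KE, and so rests on 1 KO array. Against exercised WT, also on that slide, the difference was -0.28 ± 0.09 (adjusted p = 0.661), or 82.2% of the exercised WT signal. Against WT it was -0.46 ± 0.09 (adjusted p = 0.0622), and with the slide block -0.33 ± 0.16 (adjusted p = 0.992).

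The effect of swimming on Sstr2 in knockout mice was set against that in wild-type mice by the interaction term. It was -0.35 ± 0.13 (limma, adjusted p = 0.578), and -0.39 ± 0.13 with the slide block (adjusted p = 0.384). Exercised WT differed from WT by -0.18 ± 0.09 (adjusted p = 0.241), and by -0.05 ± 0.16 with the block. KO differed from WT by 0.06 ± 0.09, with a 95% confidence interval from -0.14 to 0.27 (0.11 ± 0.10 with the block), so the knockout without swimming showed no detectable difference at 3 arrays a group. Thus Sstr2 was lowest on every KE array, but in the 4-group model none of its differences passed the adjusted threshold.

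Exercised WT replicate 3 stood apart in the genes of neighbouring tissue. The striatal marker Ppp1r1b, named after its values were seen, read 12.35 there against 10.89 to 11.76 on the other 11 arrays, and Cort, which encodes the somatostatin-like peptide cortistatin of cortical interneurons, read 8.34 there against 5.74 to 6.68. The summed signal of 5 striatal markers, all detected on 12 arrays, was 7967 to 13818 in exercised WT, 7664 to 8416 in KE, 7878 to 8610 in KO and 7935 to 9992 in WT. The part of such tissue in the Sstr2 values was not tested. Without exercised WT replicate 3, Sstr2 differed between KE and exercised WT by -0.38 (limma, adjusted p = 0.502) and the interaction was -0.45 (adjusted p = 0.473). Without KO replicate 3 the adjusted p of KE versus KO became 0.00479, and that of the first Ghr probe, the first Igf1 probe and Sst became 0.0228, 0.0323 and 0.0337, but no KO array then remained on the slide of KE.

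Among the other receptors, the first Sstr1 probe read 11.50, 11.44 and 11.33 in WT, 11.43, 11.43 and 11.33 in KO, 11.29, 11.20 and 11.35 in exercised WT, and 11.29, 11.17 and 11.24 in KE. Sstr1 encodes a receptor that somatostatin neurons themselves use, and its signals in the swimming groups lay a little lower: KE and KO did not overlap, while exercised WT and WT did. KE differed from KO by -0.17 ± 0.07 (limma, adjusted p = 0.201), from WT by -0.19 ± 0.07 (adjusted p = 0.0899), and exercised WT from WT by -0.15 ± 0.07 (adjusted p = 0.188). With the slide block these were -0.10 ± 0.09, -0.10 ± 0.11 and -0.05 ± 0.11. The second Sstr1 probe, at 3.00 to 4.17, gave no second reading.

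Sstr3 encodes the somatostatin receptor of neuronal primary cilia. It read 10.95, 10.98 and 10.89 in WT, 10.93, 10.75 and 11.06 in KO, 10.93, 10.88 and 10.82 in exercised WT, and 10.92, 10.92 and 10.87 in KE. All 4 groups overlapped and KE differed from KO by -0.01 ± 0.07, with an interval from -0.18 to 0.15, and by -0.16 ± 0.08 with the slide block (limma, adjusted p = 0.624). With that block, exercised WT was lower than WT by -0.28 ± 0.10 (limma, adjusted p = 0.796) and KE lower than WT by -0.26 ± 0.10 (adjusted p = 0.992). These estimates take the slide from the KO arrays alone, of which the third, at 11.06, was the highest of all 12 arrays.

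Sstr4, a receptor mostly of cortex and hippocampus, read 6.09, 6.00 and 6.13 in WT, 5.94, 6.30 and 5.90 in KO, 6.05, 5.84 and 5.72 in exercised WT, and 5.72, 6.18 and 5.97 in KE. The groups overlapped in every comparison. KE differed from KO by -0.09 ± 0.14, with a 95% confidence interval from -0.40 to 0.22, and by 0.06 ± 0.20 with the slide block.

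**Figure D2:**
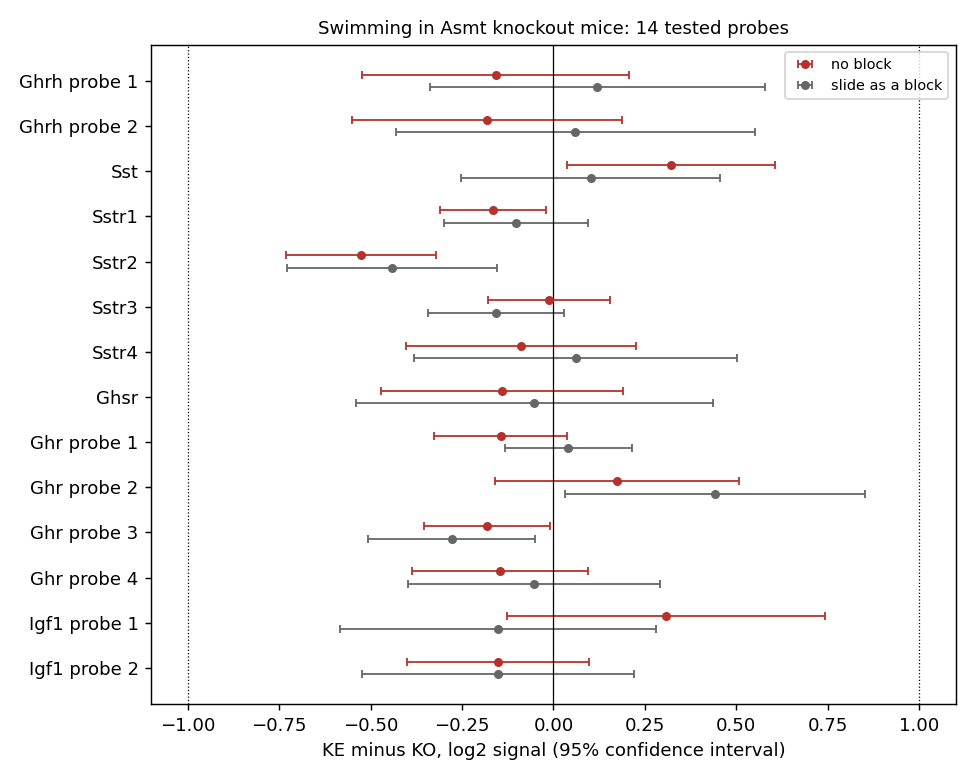
Difference KE minus KO in log2 signal (x axis) with its 95% confidence interval for the 14 tested probes (y axis), fitted without a block (red) and with the slide as a block (grey); dotted lines mark a fold change of 2. Sstr2, from -0.73 to -0.32 and from -0.73 to -0.15, and the third Ghr probe, from -0.35 to -0.01 and from -0.51 to -0.05, have intervals below 0 in both fits, and no interval reaches a fold of 2.

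The hormone genes came next. Sst read 14.97, 15.21 and 15.11 in WT, 15.08, 14.96 and 15.35 in KO, 15.40, 15.25 and 15.05 in exercised WT, and 15.61, 15.43 and 15.30 in KE. KE lay above WT without overlap but overlapped KO, of which replicate 3 lay with KE. The signal in KE was 125% of that in KO, a difference of 0.32 ± 0.13 (limma, adjusted p = 0.202), and 128% of that in WT, a difference of 0.35 ± 0.13 (adjusted p = 0.106). With the slide block the differences were 0.10 ± 0.16 and 0.02 ± 0.20. On slide 2, KE was above exercised WT by 0.22 ± 0.13 (adjusted p = 0.796). Exercised WT versus WT was 0.13 ± 0.13, and -0.20 ± 0.20 with the block, so its sign depended on the slide term.

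The first Ghrh probe read 11.72, 11.76 and 11.61 in WT, 11.84, 12.04 and 11.52 in KO, 11.70, 11.49 and 11.20 in exercised WT, and 11.85, 11.66 and 11.41 in KE. WT arrays lay close together and the other groups spread widely, with an SD of 0.08 in WT and 0.22 to 0.26 elsewhere, and every pair of groups overlapped. KE differed from KO by -0.16 ± 0.16 (limma, adjusted p = 0.590), and by 0.12 ± 0.20 with the slide block. KO differed from WT by 0.10 ± 0.16, with an interval from -0.26 to 0.47, and exercised WT from WT by -0.24 ± 0.16. With the slide block these were 0.24 ± 0.16 and 0.18 ± 0.26, so the sign of exercised WT versus WT turned, as did that of KE versus KO. The overlapping second probe read 0.14 to 0.23 log2 units lower on every array.

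The markers of the arcuate nucleus, where Ghrh neurons sit, were all detected: 7 of 7 genes, among them Agrp and Pomc, on all 12 arrays. Their summed signal was 48835 to 58912 in WT, 49874 to 60539 in KO, 41359 to 53102 in exercised WT and 46258 to 52505 in KE. Of 11 markers of other hypothalamic nuclei 10 were detected on all arrays (Sim1 on 9). Their part in the spread of Ghrh was not tested.

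Ghsr, the receptor through which ghrelin reaches the Ghrh neurons, read 7.25, 7.38 and 7.12 in WT, 7.31, 7.53 and 7.29 in KO, 7.43, 7.52 and 6.97 in exercised WT, and 7.43, 7.20 and 7.08 in KE. The groups overlapped throughout, and the order of the means, from 7.38 in KO to 7.24 in KE, spanned less than the SD of 0.29 in exercised WT. KE differed from KO by -0.14 ± 0.15 (limma, adjusted p = 0.600), with an interval from -0.47 to 0.19, and by -0.05 ± 0.22 with the slide block.

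Ghr was read by 4 probes, and their patterns differed. Alternative splicing of the mouse gene yields the membrane receptor and a soluble growth hormone-binding protein. In the array annotation the second probe had no RefSeq transcript. The probes listed after it shared a RefSeq transcript other than that of the first probe. Which of these products each probe reads was not tested. The first probe read 10.72, 10.61 and 10.66 in WT, 10.73, 10.69 and 10.43 in KO, 10.48, 10.38 and 10.34 in exercised WT, and 10.53, 10.47 and 10.42 in KE. All exercised WT and KE arrays lay below all WT arrays, and KO replicate 3 lay with them. Exercised WT differed from WT by -0.26 ± 0.08 (limma, adjusted p = 0.105) and KE from WT by -0.19 ± 0.08 (adjusted p = 0.148), but with the slide block the differences were 0.02 ± 0.10 and 0.09 ± 0.10. Without KO replicate 3 the adjusted p of exercised WT versus WT for this probe became 0.0127.

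The second Ghr probe read 8.72, 8.62 and 8.55 in WT, 8.48, 8.75 and 8.21 in KO, 8.69, 8.58 and 8.63 in exercised WT, and 8.93, 8.64 and 8.39 in KE. Its KE minus KO difference was 0.17 ± 0.15 and, with the slide block, 0.44 ± 0.18 (limma, adjusted p = 0.514), an estimate set by the low value of KO replicate 3. The third probe read 7.58, 7.77 and 7.77 in WT, 7.79, 7.87 and 7.98 in KO, 7.84, 7.74 and 7.71 in exercised WT, and 7.78, 7.70 and 7.61 in KE, so that KO lay above WT and above KE without overlap. KO exceeded WT by 0.17 ± 0.08 (adjusted p = 0.846), or 0.12 ± 0.08 with the slide block, and KE was below KO by -0.18 ± 0.08 (adjusted p = 0.223), or -0.28 ± 0.10 with the slide block (adjusted p = 0.456). The fourth probe lay between 6.42 and 6.87, and its groups overlapped in every comparison.

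Igf1 encodes the growth factor by which growth hormone acts on many tissues, and which brain cells also make. Its first probe read 7.86, 7.88 and 7.99 in WT, 7.96, 7.81 and 8.57 in KO, 8.31, 8.51 and 7.95 in exercised WT, and 8.48, 8.25 and 8.54 in KE. The 5 arrays of slide 1 lay between 7.81 and 7.99 and 6 of the 7 arrays of slide 2 between 8.25 and 8.57, KO replicate 3 being the highest. KE exceeded WT by 0.51 ± 0.20 (limma, adjusted p = 0.117), at 143% of the WT signal, and with the slide block was -0.18 ± 0.24 from it. KE minus KO was 0.31 ± 0.20 and, with the block, -0.15 ± 0.19. The second Igf1 probe lay between 7.23 and 7.64 and showed neither the slide difference (KO replicate 3 was 0.00 log2 units from the mean of the other KO arrays) nor a difference between KE and WT (-0.02 ± 0.11, and -0.02 ± 0.21 with the block). Its KE arrays lay just below its KO arrays without overlap (-0.15 ± 0.11; limma, adjusted p = 0.445), and with the block the difference was -0.15 ± 0.16. The third probe was too dim to be tested.

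**Figure D3:**
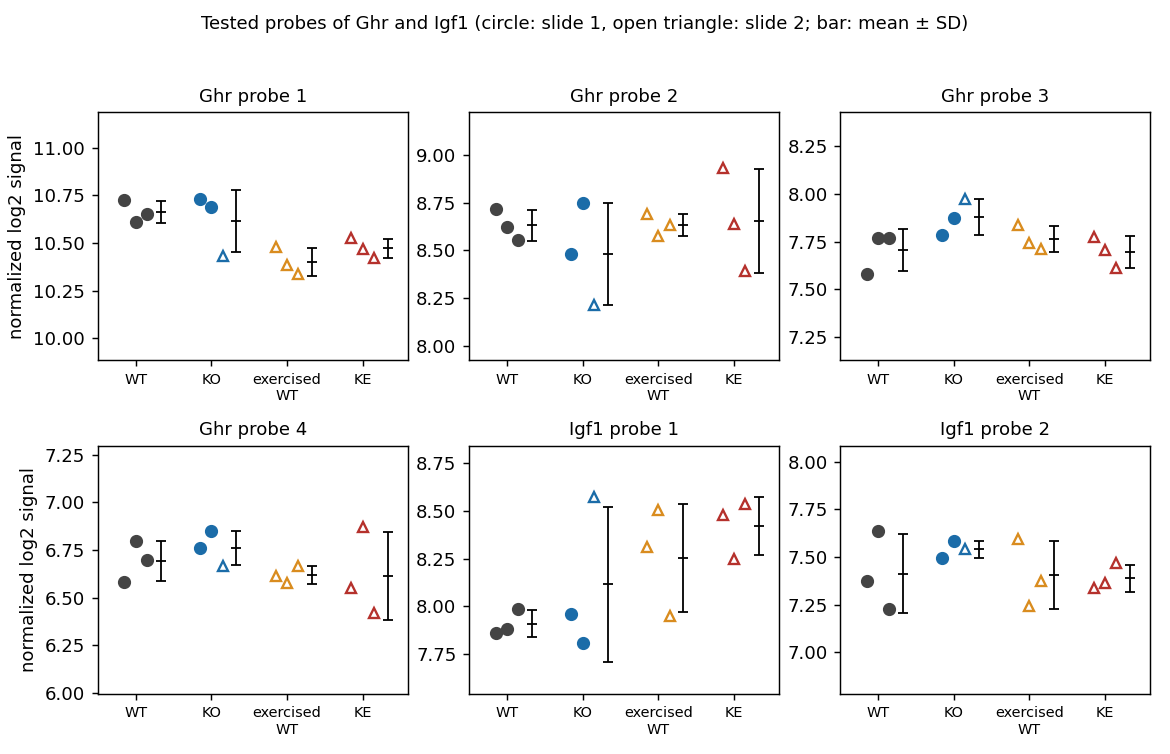
Normalized log2 signal (y axis, the same span in every panel) of the 4 Ghr probes and the 2 tested Igf1 probes on each array, by group (x axis), with slide 1 as filled circles, slide 2 as open triangles and group means ± SD (n = 3). The probes of 1 gene differ in pattern: the first Igf1 probe lies 7.81 to 7.99 on slide 1 and from 8.25 to 8.57 on 6 of 7 arrays of slide 2, the second between 7.23 and 7.64 on both.

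Slide and group were set side by side for all tested members. KO replicate 3 differed from the mean of KO replicates 1 and 2 by 0.69 for the first Igf1 probe, 0.33 for Sst, -0.42 for the first Ghrh probe, -0.40 for the second Ghr probe and -0.28 for the first Ghr probe. The same KO mean was the base for KE, which differed from it by 0.54, 0.43, -0.30, 0.04 and -0.24. Sstr2 was the tested member for which KE lay furthest below KO replicate 3, at -0.57 against -0.13. Over all 35230 tested probes the difference of KO replicate 3 had a median of -0.06, with 90% of probes between -0.58 and 0.88, so the members were within the common range.

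**Figure D4:**
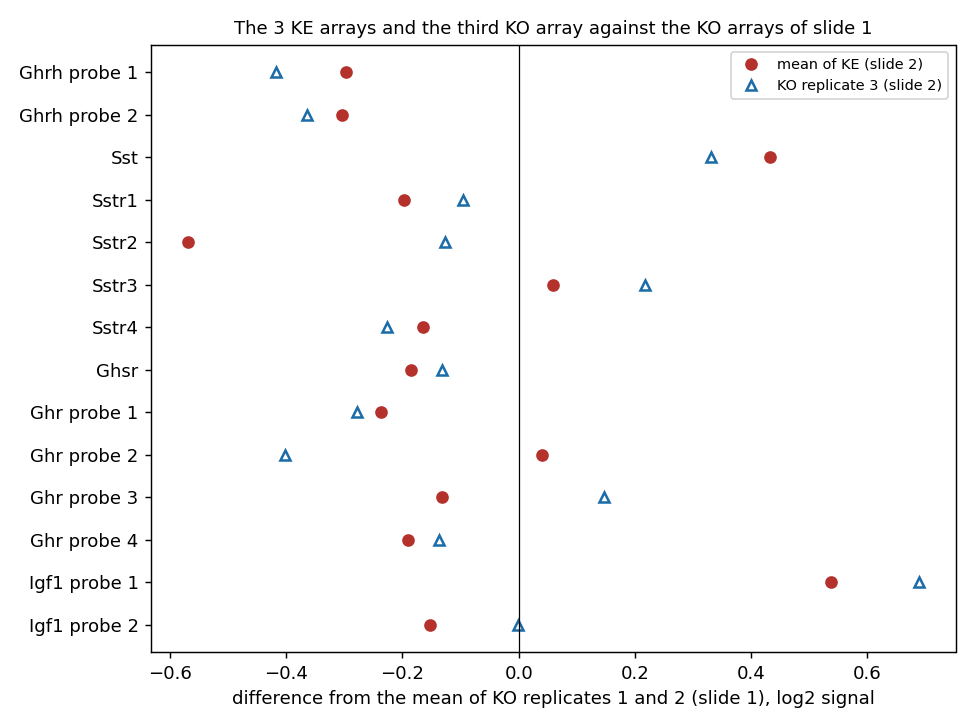
Difference in log2 signal (x axis) from the mean of KO replicates 1 and 2, which lay on slide 1, for the mean of the 3 KE arrays (filled circles) and for KO replicate 3 (open triangles), both on slide 2, for the 14 tested probes (y axis). Sst, the first Igf1 probe, Ghrh and the first Ghr probe have both marks on the same side at similar distance, and Sstr2 has them at -0.57 and -0.13.

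The promoters of Sst and Sstr2 are shown because both hold the cAMP response element TGACGTCA, in capitals, the palindromic motif bound by CREB. The element of the somatostatin gene is the classical example. The sequences are the 250 bases before the start, from RefSeq on GRCm38.p6, 5′ to 3′ along each gene. Of 9 genes 8 had an entry, with 11 windows, and 2 genes held the motif. Of all 32851 windows of this length 508, or 1.55%, held it. It began 48 bases before the start of Sst and 58 bases before that of Sstr2. Without the slide block KE differed from KO by 0.32 for Sst, whose KE and KO arrays overlapped, and by -0.53 for Sstr2. With the slide block the differences were 0.10 and -0.44. The match is a description of the letters.
Sst, chr16:23890845-23891094, minus strand: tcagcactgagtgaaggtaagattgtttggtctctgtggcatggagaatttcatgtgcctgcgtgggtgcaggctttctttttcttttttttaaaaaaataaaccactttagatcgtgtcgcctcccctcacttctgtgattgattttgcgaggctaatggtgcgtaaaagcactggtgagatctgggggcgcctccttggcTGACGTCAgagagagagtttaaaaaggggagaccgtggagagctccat
Sstr2, chr11:113619077-113619326, plus strand: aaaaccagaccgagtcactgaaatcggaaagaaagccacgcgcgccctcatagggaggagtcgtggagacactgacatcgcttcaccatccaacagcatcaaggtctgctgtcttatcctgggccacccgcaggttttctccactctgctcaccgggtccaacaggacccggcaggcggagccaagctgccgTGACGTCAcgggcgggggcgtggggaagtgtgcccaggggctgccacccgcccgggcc

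The rest of the pathway was taken from 4 lists with 39 genes: other peptides and receptors of the axis, growth hormone receptor signalling, the IGF system, and the effectors of somatostatin receptors. Of these, 35 genes with 57 probes were tested. In KE versus KO 1 probe met the screening criterion upward and 0 downward, in exercised WT versus WT 1 and 0, in KE versus WT 1 and 1, and 0 in the other comparisons. With the slide block 0 probes met it in all 6 comparisons, and no probe had an adjusted p under 0.05 without the block. By the p of 0.05 alone, KE versus KO had 3 of the 57 probes higher, against 8.1% of all tested probes, and 10 lower, against 13%, and the median difference of the 57 was -0.10 against -0.04 over all tested probes. Gh itself and the receptor gene Ghrhr, both pituitary genes, were well above background on 0 of 12 arrays, so no growth hormone message was detected in the samples. Of 8 anterior pituitary markers 2 were detected on all arrays and 3 on none, and their summed signal was 201 to 285 in WT, 263 to 3302 in KO, 250 to 1977 in exercised WT and 248 to 2198 in KE. The wide ranges followed Cga, the common subunit of pituitary glycoprotein hormones, which was detected on 5 arrays and read 11.51 and 10.58 in KO replicates 1 and 2, 10.72 in exercised WT replicate 3 and 10.87 in KE replicate 1 against at most 5.90 elsewhere.

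The probe that met the criterion upward in 3 comparisons was the second probe of Igfbp5, which encodes an IGF-binding protein. It read 4.16 to 4.70 on the 5 arrays of slide 1 and 6.98 to 7.65 on the 7 arrays of slide 2, KO replicate 3 (7.53) included. Its difference of 3.04 between KE and WT (limma, adjusted p = 0.0622) was 0.09 with the slide block. The brightest Igfbp5 probe lay between 11.71 and 12.03 and differed by -0.07. The probe that met it downward was that of Mboat4, the enzyme that acylates ghrelin. KE differed from WT by -1.13 ± 0.47 (limma, adjusted p = 0.143), and by -1.27 with the block. The Mboat4 probe was detected on 8 of 12 arrays, which included all 3 WT arrays but just 1 KE array. Only WT had full detection, so this probe was tested because of the group where it read highest.

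Sstr5, the remaining somatostatin receptor, read 10.16 to 10.25 on slide 1 and 10.64 to 10.99 on slide 2 with its brightest probe, KO replicate 3 being the highest. KE exceeded WT by 0.66 ± 0.18 (limma, adjusted p = 0.0635), and was -0.14 from it with the slide block. The second Sstr5 probe read 6.11 to 6.75 on slide 1 and 6.59 to 6.84 on slide 2, so there the slides overlapped. Socs2, a feedback inhibitor that growth hormone induces through Stat5b, was read by several probes. Its brightest had a KE minus KO difference of -0.48 ± 0.17 (limma, adjusted p = 0.180), which was -0.05 with the slide block. The other tested Socs2 probes differed less, by -0.33, -0.24 and -0.11. The brightest probe of Stat5b, the transcription factor downstream of Ghr, differed by -0.01 ± 0.05 (-0.06 with the block). The other tested Stat5b probe was much dimmer, at 4.63 to 5.65. On it KE differed from KO by -0.38 ± 0.14 (limma, adjusted p = 0.184), and by -0.28 with the block. From WT the KE signal differed by -0.69 ± 0.14 (limma, adjusted p = 0.0622), and by -0.54 with the block. The brightest probe of Igf1r, the IGF-1 receptor, differed between KE and KO by -0.04 ± 0.13 (0.08 with the block), and that of Igfbp2, a binding protein of brain and cerebrospinal fluid, by -0.20 ± 0.13 (-0.15 with the block).

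The genes most like Ghrh and Sst over the 12 arrays were named by Pearson correlation among 18251 gene symbols, as a description of arrays that share a slide. For Ghrh these were Fndc3b (0.96), Serinc2 (0.93), Myo1a (0.92), Rin3 (0.91) and Prdm16 (0.90). After each slide's mean was subtracted they were Fndc3b (0.95), Manba (0.90), Serinc2 (0.90), Cited1 (0.89) and Mycbpap (0.89). For Sst they were Cd37 (0.97), Mpv17l (0.97), R3hdm1 (0.96), Mettl7a2 (0.96) and Scn3a (0.96), and after subtraction Rnf215 (0.96), BC005624 (0.95), Bag4 (0.95), Scn3a (0.94) and Cd37 (0.94). Among the members, Ghrh and Sst had a correlation of -0.04 over the arrays as measured and of 0.62 after each slide's mean was subtracted.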

How the data were processed

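RNA of 12 hypothalami was labelled with Cy3 and hybridized to single-colour Agilent arrays. For each array the scanner file deposited by the authors holds a processed intensity per spot, from which Agilent Feature Extraction 10.7.1.1 had subtracted the background. A GeneSpring table of quantile-normalized log2 signals was deposited beside them, as were 4 lists of the authors' own comparisons. Those lists give fold changes and p-values and 24 sample columns, none of it used here. Outlier spots were dropped from the scanner files, intensities were log2-transformed, spots of a probe were averaged, and the arrays were quantile-normalized. On 56549 of 56605 probes every array lay within 0.05 log2 units of the authors' table. Probes were kept if detected (well above background) in all 3 mice of any group. Of 59305 spots an array detected 36543 to 40276, and 0 were saturated. The number of arrays limits the precision.

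A model of the 4 group means over all 12 arrays was fitted in R 4.3.3 (limma 3.58.1) for 5 group comparisons and the interaction, with Benjamini-Hochberg adjustment over all tested probes. On simulated data for KE versus KO with 200 changed probes among 35230, an adjusted p under 0.05 was reached by 72% of those changed by 1 log2 unit and by 87% of those changed by 1.5. The simulation held no slide effect and no change smaller than 1 log2 unit, so it does not cover differences as small as those of the members. Alternatives were other scaling, background correction, filters, tests, blocks and arrays left out. The labels give no pairing of mice by replicate number, and deviations of same-numbered arrays correlated between -0.19 and 0.24. The members, lists and naming rule (every member probe, 8 fixed pathway genes, and list genes past the screening criterion, with the brightest probe standing for a gene) were chosen with earlier results of these data known. Marker lists of cortex, thalamus and choroid plexus were also read: cortex markers summed to 505 to 2052 and thalamus markers to 7777 to 9794 over the arrays, and choroid plexus markers to 4213 to 6867. The result of 1 further striatal marker is not reported here.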

Additional observations from a re-analysis of the deposited data

Results flagged for a closer look

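Sstr2 was noted because the difference between swimming and no swimming was unlike in knockout and wild-type mice. All 3 KE arrays lay below all 3 KO arrays, as they did for 15.4% of all tested probes. The interaction was -0.35 ± 0.13, past p of 0.05 only before adjustment over all tested probes (limma, adjusted p = 0.578). It ranged from -0.45 to -0.27 as each array was left out, and was not past p of 0.05 before adjustment without WT replicate 1, WT replicate 3, KO replicate 1 or exercised WT replicate 1. With normexp background correction it was -0.20 and with 75th percentile scaling -0.23, neither of them past p of 0.05 before adjustment.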

How the results depend on the processing

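The count of member probes past the screening criterion was 0 in every comparison fitted, under every alternative run. This included leaving out each array in turn (0 to 0) and the replicate number as a block (0). The methods' t-test and limma on the 2 groups covered the 5 group comparisons and not the interaction. With the slide as a block, 28 of 84 differences of member probes changed sign. With 75th percentile scaling 10 did, with normexp 7, as each array was left out 1 to 9, and in every other alternative 0. By more than the replicate SD, 32 moved with the slide block, 5 with normexp, 1 with 75th percentile scaling and 0 in every other alternative. Sstr2 was lower in KE than in KO under all 22 alternatives (-0.57 to -0.35), with adjusted p from 0.00479 (without KO replicate 3) to 0.355 (slide block). Without KO replicate 3 the first Ghr probe (adjusted p = 0.0228), the first Igf1 probe (0.0323) and Sst (0.0337) also passed in KE versus KO, and in KE versus WT they reached 0.0353, 0.0267 and 0.0494. In KE versus WT, the adjusted p of Sstr2 was 0.0473 with normexp, 0.0313 with the methods' t-test and 0.0121 with limma on the 2 groups. It was 0.00768 without KO replicate 3, against 0.0622 in the model of all 4 groups. That of the first Igf1 probe was 0.0468 with the methods' t-test and 0.0189 with limma on the 2 groups, against 0.117. The cause was not tested. With 3 mice a group, and 1 KO array on slide 2, swimming and slide cannot be told apart in wild-type mice without that array.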
